A study of Mus musculus with 4 samples.

Results

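Ribosomal protein paralogs are extra copies of genes for ribosomal proteins, and the genes described here are 6 such copies with 4 of their main copies, 10 of the 24428 genes counted in each library. They were taken by symbol: Rpl22 with Rpl22l1, Rpl39 with Rpl39l, Rps27 with Rps27l, Rpl7 with Rpl7l1, and Rps4l and Rpl10l, whose main copies Rps4x and Rpl10 were read beside them. The group was chosen by the measured fold change of Rpl22l1, which was far lower after tamoxifen, so the values of Rpl22l1 are a description with no test. The other 9 genes entered by name and not by their own change.

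Poly(A)-selected RNA was sequenced from 129SvEv mouse embryonic stem cells grown with serum and LIF, the cytokine that keeps such cells undifferentiated. All cells, controls included, carried Smarca4flfl, both copies of Smarca4 flanked by loxP sites, and CreER, a recombinase that 4-hydroxytamoxifen activates. Smarca4 encodes BRG1, an ATPase of the mSWI/SNF (BAF) chromatin remodeling complexes. Ethanol was used for 2 libraries and 0.8 uM 4-hydroxytamoxifen for the other 2, for 48 h, with harvest 72 h after the start. The genotype label names an acute Smarca4 deletion in all 4 libraries, ethanol included, so the groups rest on the titles and treatments. The labels do not name the promoter that drives CreER or the number of clones, and separate cultures are not stated for the replicates. A p-value here therefore reflects library-to-library spread, which may be technical. Drug, active Cre and deletion cannot be told apart, since floxed cells without active Cre were the only control. The comparison asks which transcripts differ between 4-hydroxytamoxifen and ethanol in these cells.

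A ribosome holds a single copy of most of its proteins, and its proteins are built into a small subunit (Rps genes) and a large subunit (Rpl genes). Most of these proteins come from a single expressed gene, but a few have a second gene whose product can take the same place. Rpl22l1 can replace Rpl22 in the large subunit, and Rpl22 is known to hold down Rpl22l1. Rpl39l and Rpl10l are known mainly from male germ cells, where they stand in for the X-linked Rpl39 and Rpl10. Rps27l is a known target of the stress regulator p53, and Rpl7l1 resembles Rpl7 and has been found with ribosomes under assembly. Rps4l resembles the X-linked Rps4x and is classed as a transcribed pseudogene in the RefSeq table used here.

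The letters of a pair decide how well its reads can be told apart, so coding stretches of the pairs whose ratios differed most between the groups are shown, from GENCODE M21 transcripts (GRCm38), 5′ to 3′ on the coding strand. Capitals mark bases that differ from the aligned partner or have no partner. The first 150 coding bases of the Rpl22 pair and all 153 coding bases, stop codon left out, of the Rpl39 pair read as follows.
Rpl22l1: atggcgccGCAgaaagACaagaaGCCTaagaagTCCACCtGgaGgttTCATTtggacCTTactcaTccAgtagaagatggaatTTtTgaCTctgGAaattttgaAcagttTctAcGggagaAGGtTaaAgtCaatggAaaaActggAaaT
Rpl22: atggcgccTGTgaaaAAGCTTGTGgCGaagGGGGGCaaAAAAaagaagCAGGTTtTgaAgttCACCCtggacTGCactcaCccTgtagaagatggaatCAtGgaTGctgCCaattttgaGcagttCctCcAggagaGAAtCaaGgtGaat
Rpl39l: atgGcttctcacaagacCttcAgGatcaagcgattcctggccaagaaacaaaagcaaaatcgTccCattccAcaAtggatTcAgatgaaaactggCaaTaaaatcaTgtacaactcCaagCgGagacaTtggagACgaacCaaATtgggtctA
Rpl39: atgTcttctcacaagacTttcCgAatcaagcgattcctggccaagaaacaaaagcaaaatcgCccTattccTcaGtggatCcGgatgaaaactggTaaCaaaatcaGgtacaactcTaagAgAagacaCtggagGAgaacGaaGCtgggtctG
Over the whole coding sequence, Rpl22l1 was identical to Rpl22 at 257 of 366 aligned bases (70.2%), with a longest identical run of 26 bases. Rpl39l matched Rpl39 at 130 of 153 bases (85%), with a longest run of 38. Identity was 76.2% for Rps27l and Rps27, 59.8% for Rpl7l1 and Rpl7 and 84.7% for Rpl10l and Rpl10. In all 6 pairs, no window of 50 bases in the transcript of the paralog was found in any transcript of its main copy. The read length is not given in the sources used here, so 50 bases is a chosen length.

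Copies elsewhere in the genome share more sequence than the partners do. Of the 50-base windows of Rpl22l1, 330 of 503 (65.6%) also occurred in transcripts of other genes, 284 of them in Gm15421, a transcribed processed pseudogene on another chromosome. The share was 85.4% for Rpl10, 72.2% for Rps4x, 63.1% for Rps27 and 53.3% for Rpl7. It was lower for Rpl39 (16.5%), Rps4l (14.9%), Rps27l (13.7%), Rpl7l1 (9.19%), Rpl10l (7.6%) and Rpl22 (5.19%), and no window of Rpl39l occurred in another gene. How reads with several matches were treated is not given in the sources used here, so counts of the genes with large shares are uncertain. Rpl22l1 also overlaps an antisense gene, Gm33051, and without a stated strand setting their reads cannot be told apart.

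Rpl22l1 had 1375 and 1292 reads in ethanol replicates 1 and 2 and 165 and 199 reads in tamoxifen replicates 1 and 2. Scaled to a common library size with TMM factors (CPM, reads of a gene relative to the scaled total of its library), the levels were 89.6 and 49.6 with ethanol and 11.7 and 11.2 with tamoxifen. Both tamoxifen libraries lay far below both ethanol libraries, and the ethanol libraries differed from each other by much more than the tamoxifen libraries did. The mean went from 69.6 ± 28.3 to 11.4 ± 0.369 CPM (SD, n = 2). The fitted log2 fold change was -2.60 ± 0.27 (SE), with a range of -3.15 to -2.06 for 2 SE either way, and 0.276% of the 14479 tested genes lay lower. In bulk RNA, fewer cells with a transcript and less of it per cell cannot be told apart.

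Transcripts poor in G and C were lower with tamoxifen across the libraries, and the reference transcript of Rpl22l1 has a GC content of 40.6%. Among 1434 tested genes within 2 percentage points of that content, the median log2 fold change was -0.66. With the GC trend of each library removed, Rpl22l1 had -1.96 ± 0.33 (SE), a 3.89-fold lower level. The value ranged from -2.97 without ethanol replicate 2 to -1.42 without ethanol replicate 1 and with the GC trend removed.

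Gm15421, which was picked for its shared sequence and after its values were seen, had 1247 and 1693 reads with ethanol and 393 and 391 with tamoxifen. Its level was 81.2 and 65 CPM with ethanol and 27.8 and 21.9 CPM with tamoxifen, so it was also lower in both tamoxifen libraries. Reads of Rpl22l1 and Gm15421 summed to 171 and 115 CPM with ethanol and 39.5 and 33.1 CPM with tamoxifen. The mean of the sum was 3.93-fold lower with tamoxifen, against 6.10-fold for Rpl22l1 alone and 2.94-fold for Gm15421 alone.

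Rpl22, the main copy, had 14004 and 21636 reads with ethanol and 9165 and 10252 with tamoxifen. Its levels were 912 and 831 CPM with ethanol and 648 and 575 CPM with tamoxifen, and the groups did not overlap. Rpl22 fell 1.43-fold, with a log2 fold change of -0.51 ± 0.16 (SE; edgeR quasi-likelihood test, adjusted p = 0.0191). The call ended with the GC trend removed (-0.41, adjusted p = 0.0636), with total counts as the scale (-0.38), without tamoxifen replicate 1 (-0.60) and without tamoxifen replicate 2 (-0.42). For every 100 reads of Rpl22, the ethanol libraries held 9.82 and 5.97 reads of Rpl22l1 and the tamoxifen libraries 1.8 and 1.94. Paralog and main copy were thus both lower, and the paralog by more, with a log2 ratio that differed by -2.03 between tamoxifen and ethanol.

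**Figure D1:**
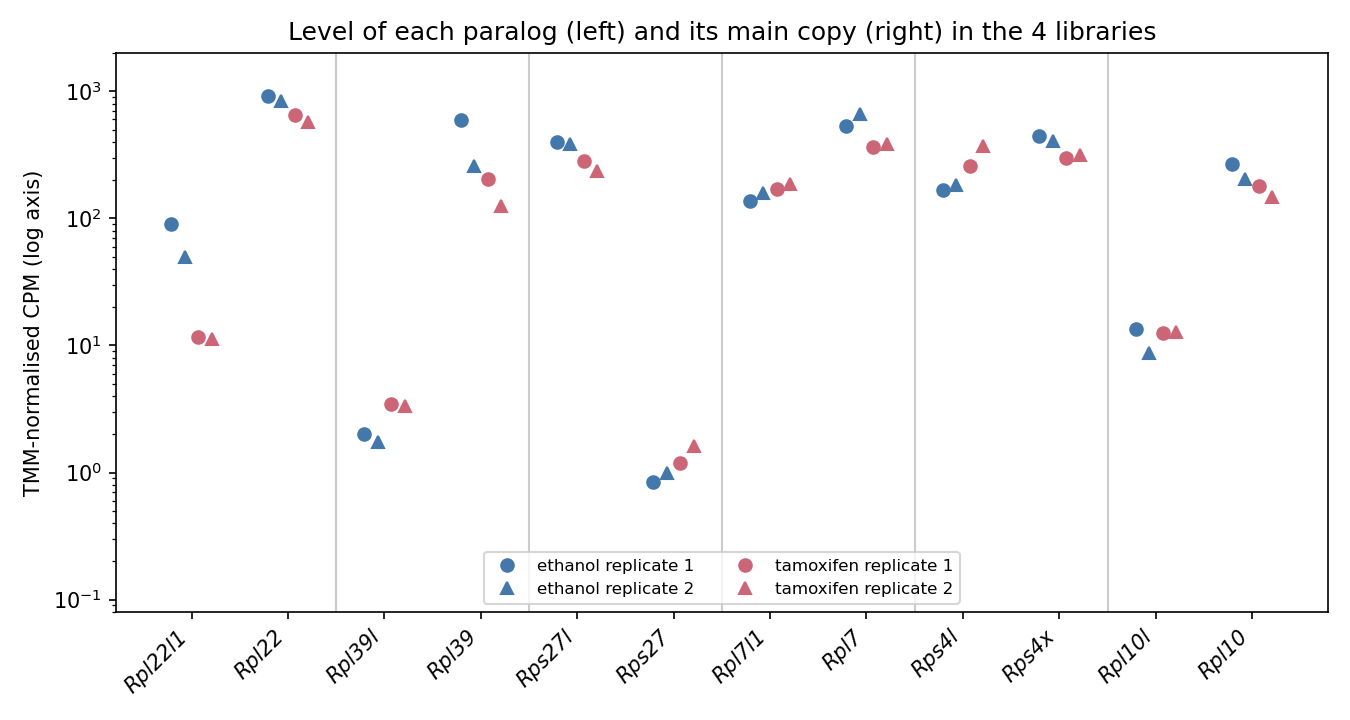
Level of each paralog and its main copy in TMM-normalised CPM on a log axis, with 1 point per library (ethanol blue, tamoxifen red, circles replicate 1, triangles replicate 2). Rpl22l1 stands at 11.7 and 11.2 CPM with tamoxifen, below 89.6 and 49.6 with ethanol, and Rpl39l and Rps27 lie at the foot of the axis.

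Of the 9 genes other than Rpl22l1, all passed the filter on low counts. Rpl39l and Rps4l rose with tamoxifen, Rpl22, Rpl7 and Rps27l fell, and Rpl39, Rps27, Rpl7l1 and Rpl10l did not pass the test. Over all 14479 tested genes 44.5% were called, 21.5% higher and 22.9% lower, so 2 and 3 of 9 are near the shares of any genes. The libraries of the groups did not overlap for 8 of the 9, and for 74% of all tested genes.

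Rpl39l had 31 and 45 reads with ethanol and 49 and 60 with tamoxifen. These are levels of 2.02 and 1.73 CPM with ethanol and 3.47 and 3.36 CPM with tamoxifen, so the groups did not overlap. With so few reads, close values in 2 libraries are a weak guide to the spread. Rpl39l rose 1.84-fold (0.88 ± 0.26 log2, SE; edgeR quasi-likelihood test, adjusted p = 0.0173). It went against the trend of GC content, since 2163 genes of like content had a median of -0.50, and with the trend removed its value was 1.37 (adjusted p = 0.00332). The call ended with DESeq2 (0.87, adjusted p = 0.115) and when any of 3 libraries was left out: ethanol replicate 2 (0.76), tamoxifen replicate 1 (0.85) and tamoxifen replicate 2 (0.90). That call held with any library left out once the GC trend was removed, at adjusted p from 5.61e-05 to 0.0319, in fits chosen after seeing the data.

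Rpl39, whose product lines the tunnel through which the new protein leaves the ribosome, had 592 and 260 CPM with ethanol and 203 and 126 CPM with tamoxifen. Both tamoxifen libraries were the lower ones, but ethanol replicate 1 stood far above ethanol replicate 2. The log2 fold change was -1.37 ± 0.51 (SE) and did not pass the test (edgeR quasi-likelihood test, adjusted p = 0.108), with a range of -2.40 to -0.34 for 2 SE either way. The value passed with no filter on low counts (-1.37), with limma voom (-1.30) and with a replicate block (-1.29). With the GC trend removed it passed with that block (-1.16) but not in the fit lacking it (-1.23). Dropping ethanol replicate 1 gave -0.66, or -0.54 after removal of the GC trend. When ethanol replicate 2 was dropped instead, these values became -1.84 and -1.71. Per 100 reads of Rpl39 there were 0.341 and 0.664 reads of Rpl39l with ethanol and 1.71 and 2.66 with tamoxifen. The log2 ratio of paralog to main copy was 2.16 higher with tamoxifen, the largest increase among the 6 pairs, so the levels of the pair lay closer together.

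Rpl39l and Rpl10l are germ cell paralogs, so markers of male germ cells were read beside them. Of 12 markers 4 passed the filter, and Sycp1 and Sycp3, proteins of meiotic chromosomes, fell (2 of 4 tested). None of the 4 rose, where 22.9% of all tested genes fell and 21.5% rose. After removal of the GC trend Sycp3 stayed called (-0.82) and Sycp1 did not (-0.58; edgeR quasi-likelihood test, adjusted p = 0.177). Ddx4 and Dazl, RNA-binding proteins of germ cells, were at 0.30 and 0.45 and not called. In that fit 9.99% of all tested genes fell and 10.1% rose. The summed level of the 12 was 97.7 and 102 CPM with ethanol and 66.3 and 68.8 CPM with tamoxifen, and Pgk2 and Tnp1, markers of late male germ cells, had no read in any library. Their part in the value of Rpl39l was not tested.

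Rpl10l had 205 and 229 reads with ethanol and 177 and 229 with tamoxifen. At 13.4 and 8.79 CPM with ethanol and 12.5 and 12.8 CPM with tamoxifen the groups overlapped, and ethanol replicate 2 was the low library. The log2 fold change of 0.21 ± 0.21 (SE) did not pass the test (edgeR quasi-likelihood test, adjusted p = 0.423), with a range of -0.20 to 0.63 for 2 SE either way. It was 0.53 and called without ethanol replicate 1 and -0.07 without ethanol replicate 2. Its main copy Rpl10, at 237 CPM with ethanol and 163 CPM with tamoxifen on average, fell (-0.54 ± 0.17, SE; edgeR quasi-likelihood test, adjusted p = 0.0239). That result lost its call with the GC trend removed (-0.37), with total counts (-0.41), without ethanol replicate 1 (-0.33) and without tamoxifen replicate 2 (-0.40).

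Rps27l had 6151 and 10009 reads with ethanol and 4002 and 4217 with tamoxifen. Its levels of 401 and 384 CPM with ethanol and 283 and 236 CPM with tamoxifen did not overlap, and the ethanol libraries lay close together. Rps27l fell 1.51-fold (-0.60 ± 0.16 log2, SE; edgeR quasi-likelihood test, adjusted p = 0.00912). Its transcript has a GC content of 43.1%, genes of like content had a median of -0.50, and with the trend removed the value was -0.11 (adjusted p = 0.664). The call also ended without tamoxifen replicate 2 (-0.47).

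As a p53 target, Rps27l was set beside 24 other p53 targets, all tested, of which 5 rose and 6 fell, with a median log2 fold change of 0.13 against -0.01 for all tested genes. Only the targets with the smallest adjusted p are named here. Sesn2, a stress-induced inhibitor of growth signaling (1.46 ± 0.15 log2, SE), Bbc3, a promoter of cell death (1.37 ± 0.17), and Phlda3, an inhibitor of AKT (0.92 ± 0.17), rose, and Polk, a DNA polymerase that bypasses damage, fell (-0.58 ± 0.14). With the GC trend removed 3 rose and 0 fell, where 10.1% and 9.99% of all tested genes did. Sesn2 (0.91) and Bbc3 (0.51) were among the 3, while Phlda3 (0.15; edgeR quasi-likelihood test, adjusted p = 0.576) and Polk (0.01) were not called. The counts before that correction are near the 21.5% higher and 22.9% lower of all tested genes.

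Rps27, the main copy, was counted at 13 and 26 reads with ethanol and 17 and 29 with tamoxifen. These 0.847 and 0.998 CPM with ethanol and 1.20 and 1.63 CPM with tamoxifen gave a log2 fold change of 0.61 ± 0.36 (SE; edgeR quasi-likelihood test, adjusted p = 0.183). A window of 50 bases in Rps27 was shared with other genes in 63.1% of cases, 258 of 409 windows with the intronless copy Rps27rt, which had no read in any library. Rps27l held over 100 times as many reads as Rps27 in every library, from 14500 to 47300 per 100 reads of Rps27. With so few reads of Rps27, the fall in this ratio by 1.20 on the log2 scale rests on counts of 13 to 29.

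Rpl7 had 531 and 667 CPM with ethanol and 367 and 385 CPM with tamoxifen, and its tamoxifen libraries were nearly equal. Rpl7 fell 1.59-fold (-0.67 ± 0.16 log2, SE; edgeR quasi-likelihood test, adjusted p = 0.00611). The call ended with the GC trend removed (-0.36, adjusted p = 0.115) and without tamoxifen replicate 1 (-0.64, adjusted p = 0.0584). Rpl7l1 stood at 136 and 159 CPM with ethanol and 170 and 186 CPM with tamoxifen, higher in each tamoxifen library by a small step. Its log2 fold change of 0.27 ± 0.15 (SE) did not pass the test (edgeR quasi-likelihood test, adjusted p = 0.164), with a range of -0.03 to 0.57 for 2 SE either way.

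Per 100 reads of Rpl7 the ethanol libraries held 25.6 and 23.9 reads of Rpl7l1 and the tamoxifen libraries 46.4 and 48.3. This was the tightest of the ratios, with an SD of 0.07 log2 for ethanol and 0.04 for tamoxifen (n = 2) around a difference of 0.94. With the GC trend removed the difference was 0.72.

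Rps4l had 168 and 183 CPM with ethanol and 259 and 374 CPM with tamoxifen, and the tamoxifen libraries differed more than the ethanol libraries. Rps4l rose 1.8-fold (0.85 ± 0.18 log2, SE; edgeR quasi-likelihood test, adjusted p = 0.00300). Its GC content of 59.1% was the highest of the group, 1797 genes of like content had a median of 0.60, and with the trend removed the value was 0.28 (adjusted p = 0.283). The call also ended without tamoxifen replicate 2 (0.56).

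Rps4x, the main copy, averaged 425 CPM with ethanol and 307 CPM with tamoxifen and fell (-0.47 ± 0.15 log2, SE; edgeR quasi-likelihood test, adjusted p = 0.0239). The Rps4x call ended with the GC trend removed (-0.33), with total counts (-0.34), without tamoxifen replicate 1 (-0.43) and without tamoxifen replicate 2 (-0.51). Per 100 reads of Rps4x the ethanol libraries held 37.6 and 45.2 reads of Rps4l and the tamoxifen libraries 86.8 and 118. In tamoxifen replicate 2 the pseudogene was thus counted more often than the main copy. Of the Rps4x windows 72.2% occurred in other genes, so its count is the less certain of the pair.

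**Figure D2:**
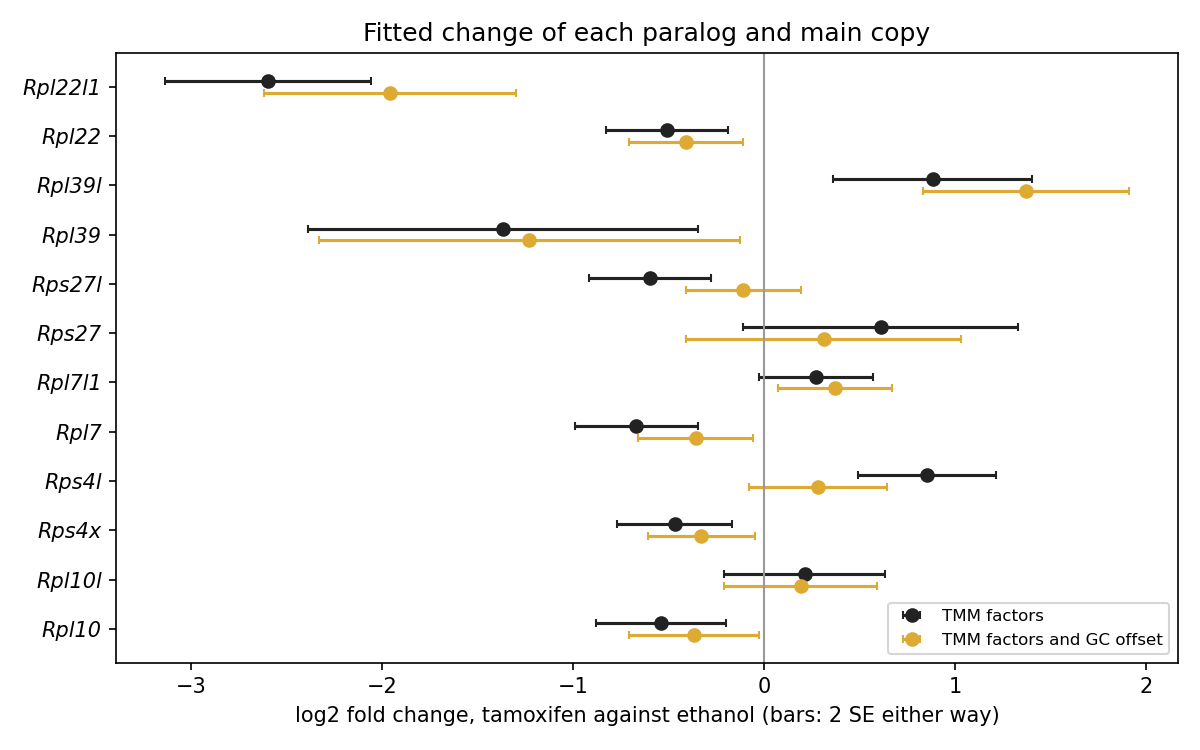
Fitted log2 fold change of tamoxifen against ethanol for each paralog and main copy, with bars of 2 SE either way, with TMM factors (black) and with the GC trend of each library also removed (yellow). Rpl22l1 lies farthest from 0 at -2.60 and -1.96, and Rpl39l is the gene whose value grew with the trend removed, from 0.88 to 1.37, more than that of any other shown.

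With the GC trend removed, 1 of the 9 genes rose (Rpl39l) and 0 fell (edgeR quasi-likelihood test), where 20.1% of all tested genes were called, 10.1% higher and 9.99% lower. At an unadjusted p under 0.05, 2 of the 9 were higher and 2 lower in that fit. Of all 14479 tested genes, 2580 were higher and 2346 lower at that threshold. DESeq2, run without that correction, called 1 higher and 3 lower. At an unadjusted p under 0.05 DESeq2 gave 1 higher and 4 lower of the 9, and 2976 higher and 3470 lower over all genes. Without tamoxifen replicate 2 the edgeR calls were 0 higher (2 at an unadjusted p under 0.05) and 1 lower, and without tamoxifen replicate 1 they were 1 and 1.

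The ratios of paralog to main copy can be set side by side, with that of Rpl22l1 as a description since this gene chose the group. The log2 ratio was higher with tamoxifen for Rpl39l (2.16), Rps4l (1.30), Rpl7l1 (0.94) and Rpl10l (0.76) and lower for Rpl22l1 (-2.03) and Rps27l (-1.20). An exact two-sided permutation test gave p = 0.333 for each of the 5 pairs other than that of Rpl22l1, which is the smallest p that 2 libraries against 2 allow, so these differences cannot pass a threshold of 0.05 in this design and adjustment over the pairs leaves them at 0.333. A ratio within a library does not depend on the scale chosen for it. With the GC trend removed the differences were 2.51 (Rpl39l), 0.60 (Rps4l), 0.72 (Rpl7l1), 0.57 (Rpl10l), -1.47 (Rpl22l1) and -0.42 (Rps27l), each in the same direction.

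**Figure D3:**
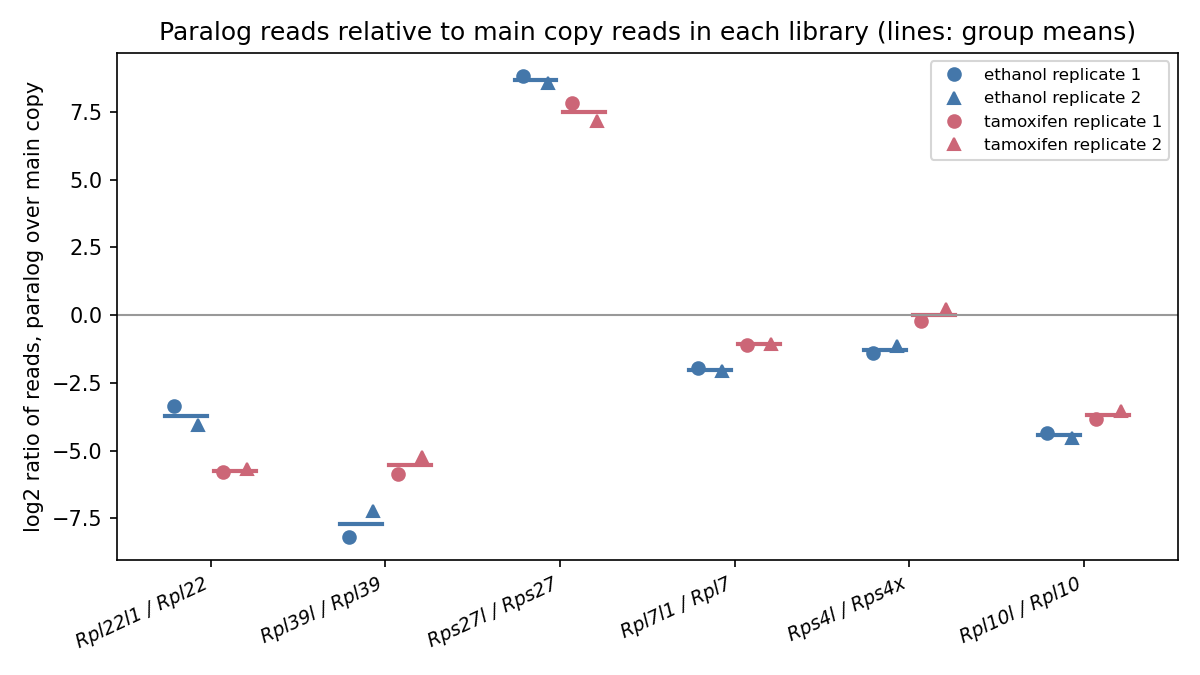
Log2 ratio of paralog reads to main copy reads in each library (ethanol blue, tamoxifen red), with group means as lines. The ratio is lower with tamoxifen for the Rpl22l1 and Rps27l pairs and higher for the other 4.

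Levels can be compared between genes only per length, so CPM was divided by the length of the reference transcript in kilobases. This was the longest protein-coding transcript of a gene, or the longest of any class for Rps4l, and need not be the one expressed. Counts of Rpl22l1, Rps27 and Rpl7 are also uncertain, since most of their windows occur in other genes. With ethanol the order of the levels per length was Rpl39 (696), Rps27l (683), Rpl7 (515), Rpl22 (425), Rps4l (186), Rpl22l1 (126), Rpl7l1 (56.7), Rpl10l (10.8), Rpl39l (2.33) and Rps27 (2.01 CPM per kb). Rpl39 ranged from 425 to 967 and overlapped its next 3 neighbours, and Rpl39l and Rps27 overlapped each other. With tamoxifen Rpl22l1 stood at 20.7 CPM per kb, below Rpl7l1 at 68.3, whereas with ethanol it was above it. Relative to Rpl22 per length, Rpl22l1 was at 0.365 and 0.222 in the ethanol libraries and at 0.0669 and 0.0721 in the tamoxifen libraries.

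The other cytosolic ribosomal proteins give the setting, as 74 genes outside the group that include the main copies Rps4x and Rpl10. All were tested: 12 rose, 14 fell, Rps4x and Rpl10 among them, and 48 did not pass the test. Over all tested genes 21.5% rose and 22.9% fell. The median log2 fold change was -0.07 (all tested genes: -0.01). In the small subunit 2 of 30 rose and 6 fell, and in the large subunit 10 of 44 rose and 8 fell. The lowest log2 fold changes were those of Rps6, a target of growth signaling (-0.80 ± 0.17, SE), Rps26 (-0.79 ± 0.63, not called) and Rps27a, a ubiquitin fusion (-0.77 ± 0.16), and the highest those of Rpl34 (0.80 ± 0.24), Rpl30 (0.79 ± 0.26) and Rps3 (0.78 ± 0.35, not called). Rpl34 and Rpl30 had few reads, 35 to 78 and 32 to 76 per library, and with the GC trend removed neither was called (0.45 each). Rps6 (-0.75) and Rps27a (-0.68) stayed called in that fit. The 74 spanned -0.80 to 0.80, and with the GC trend removed -0.75 to 0.92. With total counts as the scale, 18 rose and 6 fell, since that scale moved the median of all genes from -0.01 to 0.12. With the GC trend removed 3 rose and 9 fell, where 10.1% and 9.99% of all tested genes did. Without tamoxifen replicate 2 the counts were 0 and 4 (3 and 8 at an unadjusted p under 0.05), without tamoxifen replicate 1 6 fell, and Rps26 stood at 0.25 without ethanol replicate 1.

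Outside the group and the other cytosolic ribosomal proteins, 2 more paralogs of ribosomal proteins were read. Rpl36al, a second gene for the protein of Rpl36a, fell from 290 to 219 CPM on average (-0.40 ± 0.15 log2, SE; edgeR quasi-likelihood test, adjusted p = 0.0442; -0.37 and not called with the GC trend removed). Rpl3l, the muscle copy of Rpl3, had 25 and 28 reads with ethanol and 33 and 30 with tamoxifen and did not pass the test (0.60 ± 0.34, SE; adjusted p = 0.167). The call of Rpl36al also ended with total counts (-0.28), without tamoxifen replicate 1 (-0.50) and without tamoxifen replicate 2 (-0.32).

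**Figure D4:**
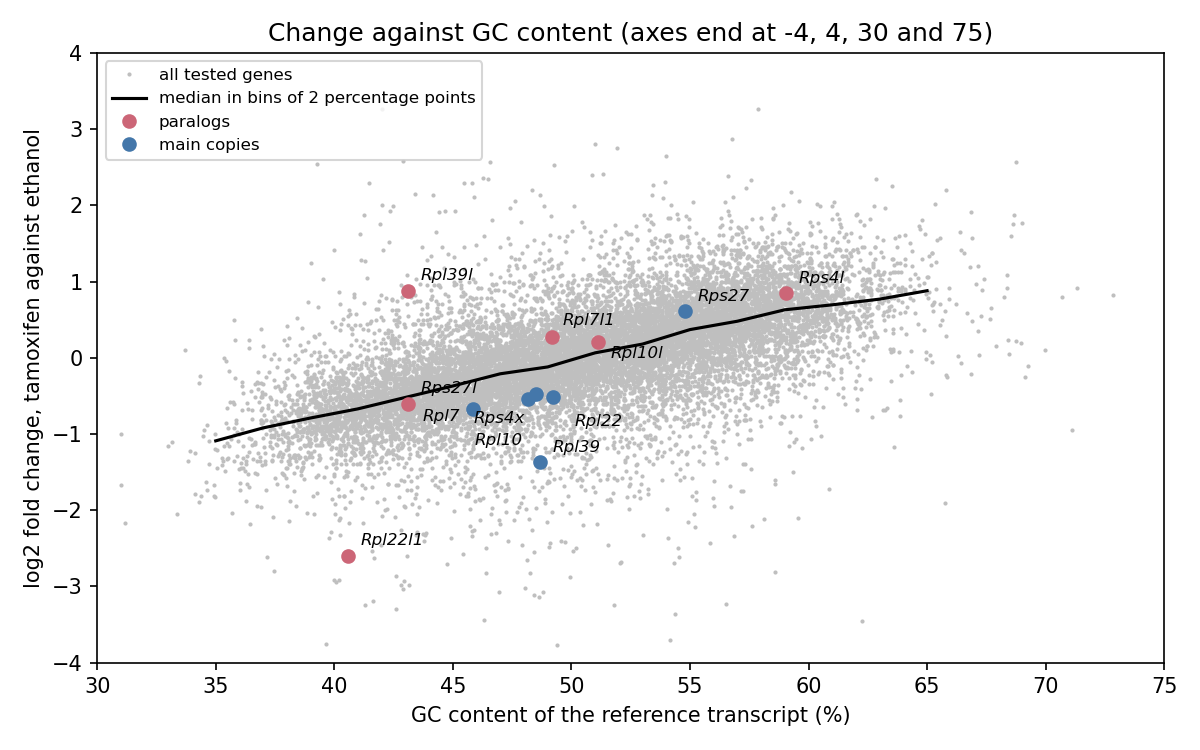
Log2 fold change of each tested gene against the GC content of its reference transcript (grey), with the median in bins (line), the paralogs in red and the main copies in blue. Rps27l (-0.60) and Rps4l (0.85) lie near the line, Rpl22l1 (-2.60) and Rpl39 (-1.37) below it, and Rpl39l (0.88) above it.

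Genes next to Rpl22l1 on chromosome 3 were read for their position. Eif5a2, a translation factor gene and the nearest protein-coding neighbour on the lower-coordinate side, fell 2.52-fold, from 59.9 to 23.7 CPM on average (-1.33 ± 0.15 log2, SE; edgeR quasi-likelihood test, adjusted p = 0.000117). With the GC trend removed it fell by 0.56 (adjusted p = 0.0234). Tnik did not pass the test (-0.24 ± 0.26), and Slc2a2, Gm1527, Egfem1 and Mecom had at most 9 reads in any library. Of the 18 genes on either side of the other 9, 14 were tested, of which 3 rose and 5 fell, where 21.5% and 22.9% of all tested genes did. Among the 5 was Upf3b beside Rpl39 (-1.21 ± 0.14), which stayed called with the GC trend removed (-0.68), while Atf7ip2 (-0.20), Lactb (-0.52), Ipo8 (-0.25) and Rab8b (0.17) did not.

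The 5 genes of like level whose 4 library values ran nearest to those of Rpl22l1 were Nr0b1, Sh3gl2, Mtap7d3, Mir684-1 and Phf11d, by the distance of log2 CPM from each gene's mean over the 4 libraries. The distance was 0.42 for Nr0b1, a nuclear receptor of stem cells, and 0.76 for Phf11d, among 4400 genes compared. Nr0b1 stood at 113 and 74.5 CPM with ethanol and 19.0 and 21.2 CPM with tamoxifen, and like Rpl22l1 it was lower in ethanol replicate 2 than in ethanol replicate 1. With 4 libraries such a likeness is a description of 4 values.

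Reads in genes ranged from 13458463 to 27086142 per library, and the targeted gene Smarca4 fell from 369 to 68.6 CPM on average (-2.43 ± 0.17 log2, SE), although its count also takes in exons that stay after the deletion. The embryonic stem cell markers Pou5f1, Sox2, Nanog, Esrrb, Zfp42, Dppa5a, Tdgf1 and Utf1 were all counted, with sums of 5004 to 5343 CPM. Of these 8, Dppa5a rose (0.53) and Tdgf1 fell (-0.52), and with the GC trend removed 3 rose and 2 fell. Of 14 fibroblast markers 13 were tested, and 9 rose and 0 fell, both before and after removal of the GC trend. Their sums were 305 and 245 CPM with ethanol and 539 and 543 CPM with tamoxifen, and their part in the results above was not tested. For both lists, the shares over all tested genes were 21.5% higher and 22.9% lower, and 10.1% and 9.99% with the GC trend removed.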

How the data were processed

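Each library's reads per gene were deposited by the authors as raw counts. Per the submitters' processing notes, CASAVA 1.8.2, Bowtie 1.1.1, HTSeq, DESeq2 and the mm9 build were used; for their roles, the annotation, the strand setting and reads with several matches, nothing is stated in the sources used. Samples were grouped by title, 2 per group. Rows that name no gene (no feature: 51.7%, 40.8%, 37.6% and 35% in ethanol replicates 1 and 2 and tamoxifen replicates 1 and 2) were left out. The 14479 genes passing edgeR's filterByExpr were fitted with edgeR 4.0.16 in R 4.3.3 (counts scaled by TMM factors and given as CPM, robust quasi-likelihood F test, Benjamini-Hochberg over all of them, threshold 0.05). SE is the log2 fold change divided by the square root of F. Alternatives were DESeq2 1.42.0, limma 3.58.1 voom, total counts, no filter, a GC offset per library, a replicate block and each library left out. The fit was tested on simulated counts with the same genes. It recovered 28.2% of changes of 1.5-fold, 90.9% at 2-fold and 100% at 4-fold, and 16 of 149 calls were false. Only 85, 66 and 49 genes were changed at these folds, drawn from genes with mean levels above those of Rps27 and Rpl39l, and no GC trend was simulated. The data had 44.5% of tested genes called and a GC trend, so these rates may not hold for them. The GC offset used reference transcripts, with a value for 99.4% of tested genes. Coding sequences came from GENCODE M21. The genes and lists were chosen with earlier results of these data known. Genes named beside the group were the lowest and highest ribosomal protein genes, neighbours on either side, the 5 most alike genes and those listed in the text.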

Additional observations from a re-analysis of the deposited data

How the results depend on the processing

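Removing the GC trend moved most counts: 1467 genes rose and 1447 fell over all tested genes, 1 and 0 among the 9 paralogs and main copies other than Rpl22l1, and 3 and 9 among the other ribosomal proteins. In that fit the pair ratios differed by -1.47 (Rpl22l1), -0.42 (Rps27l), 0.72 (Rpl7l1), 0.60 (Rps4l) and 0.57 (Rpl10l). DESeq2 called 1 of the 9 higher, and total counts gave 6 other ribosomal proteins lower. With 1 library left out, all genes gave 1800 to 3598 higher and 2055 to 3728 lower, the 9 genes 0 to 3 higher and 1 to 4 lower, and the other ribosomal proteins 0 to 18 higher and 4 to 20 lower. Those fits assume that a lone library varies as much as the pair it is set against. Pair ratios with 1 library left out ranged from -2.39 to -1.67 (Rpl22l1), 1.68 to 2.63 (Rpl39l), -1.54 to -0.86 (Rps27l), 0.88 to 0.99 (Rpl7l1), 1.07 to 1.52 (Rps4l) and 0.60 to 0.91 (Rpl10l). Signs turned for Rps27l (0.04 without tamoxifen replicate 2 and the GC trend), Rpl10l (-0.07 to 0.53 with 1 library left out, and -0.08 without ethanol replicate 2 and the GC trend), Rps26 (-1.38 to 0.25 with 1 library left out), 2310039H08Rik (-0.53 to 0.17) and Wdr20rt (-0.46 to 0.29) and, with the GC trend removed, Polk (0.01), Tnik (0.15), Rab8b (0.17) and Tmtc1 (0.02), where 2310039H08Rik, Wdr20rt, Rab8b and Tmtc1 are neighbours of the 9 genes, and the cause was not tested. Libraries share only a number: same-numbered deviations correlated at 0.234. With the replicate block 3919 genes rose and 4168 fell, among the 9 genes 3 and 4, Rpl39 was called (-1.29, and -1.16 with the GC trend also removed), and among the other ribosomal proteins 19 rose. With the block and the GC trend removed together, 25 of the other ribosomal proteins fell, Wdr20rt stood at 0.01, and Polk, Tnik, Rab8b and Tmtc1 kept the values above. The fit that removed the GC trend with 1 library left out was chosen after seeing the data. Counts of 13 to 60 reads limit Rps27 and Rpl39l.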

Other observations

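Rps27 was not the only main copy with few reads. Of 78 main-copy genes for cytosolic ribosomal proteins, 4 averaged under 5 CPM (Rpl26, Rps27, Rpl30 and Rpl34), where the median was 259 CPM and the highest 3248. Rpl30 had 32 to 76 reads per library and Rpl34 35 to 78. The share of 50-base windows found in other genes was 47.4% for Rpl26, 79.2% for Rpl30 and 6.93% for Rpl34, against a median of 48.6% over the 78 genes. Across these genes, which are not independent replicates and share the 4 libraries, the level per length and that share had a Spearman correlation of 0.01. Both are taken relative to the length of the reference transcript, so the correlation does not show what shared sequence did to the counts. That was not tested.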
